A study of Mus musculus with 11 samples.

Results

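The glucose transporter Slc2a1 and 9 enzymes of glycolysis and lactate handling (Hk1, Hk2, Pfkp, Aldoa, Pgk1, Pgam1, Pkm, Ldha and Ldhb) were followed through the cells of injured mouse kidneys. These 10 genes were taken by symbol out of 28692 genes measured, and all 10 had a value. The 11 libraries came from adult male C57Bl/6 mice that carried no transgene, and the injuries were made at 10 weeks of age with naive mice of matching age as controls. The control group held 5 libraries of uninjured kidneys, whose names carry 3 prefixes (Ctrl, N and AN), taken here as batches. The UIR group (unilateral ischemia-reperfusion, 3 libraries) held left kidneys taken 28 days after the renal pedicle had been clamped for 30 minutes. The UUO group (unilateral ureteral obstruction, 3 libraries) held left kidneys taken 28 days after permanent ligation of the ureter. The batches of the UIR and UUO libraries are not given, so batch and injury cannot be told apart. The methods give 3 mice for each injury and 5 for control, as many as there are libraries, but no label ties a library to an animal, so p-values measure the spread between libraries, which may be partly technical.

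Single-cell RNA was counted as UMIs (unique molecular identifiers, 1 per captured molecule) at the 3′ end of transcripts. Library totals were 91920461 to 110914244 UMIs in the control group, 82522753 to 117043590 in UIR and 49503312 to 60918546 in UUO. Of 85994 barcodes called as cells, 40485 were kept, and 57.1% to 78.7% of control cells, 23.5% to 36.8% of UIR cells and 3.13% to 7.66% of UUO cells were lost for mitochondrial RNA above 30%. No pair of libraries shared more than 18 cell barcodes. Cells were sorted into 18 classes from marker genes, with the 10 genes left out of the clustering, and 7841 cells stayed unnamed. Some clusters that were named had no marker of their class among their top 10 genes, as given below. The 4 loop of Henle markers were all present in the control loop of Henle pools and summed to 17372 to 22057 CPM there, and the 8 proximal tubule (PT) markers summed to 9455 to 11928 in control PT. After injury the distal classes held less of their own markers. The loop of Henle sum was 12735 to 13303 CPM in UIR and 7594 to 8650 in UUO. The distal tubule sum was 5228 to 11835 CPM in control, 1406 to 2332 in UIR and 471 to 739 in UUO. The principal cell sum was 18671 to 26054, 7927 to 9411 and 3033 to 3974 CPM, and the intercalated sum 8071 to 10814, 6269 to 8858 and 6503 to 7290. The part of this in the results below was not tested. UMIs were summed per class and library wherever at least 20 cells were present, and a level below is such a sum per 1000000 UMIs of the pool (CPM). Fewer transcripts per cell and a smaller share of the cell's RNA cannot be told apart on this scale.

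Glucose enters most cells through a facilitative carrier such as GLUT1, the product of Slc2a1, and is trapped by a hexokinase. Phosphofructokinase, aldolase, phosphoglycerate kinase, phosphoglycerate mutase and pyruvate kinase then carry it to pyruvate, which lactate dehydrogenase exchanges with lactate or mitochondria oxidise. Proximal tubules are known for living on fatty acids and lactate and for making glucose, whereas the distal nephron and collecting duct use glucose. Ldha encodes the M subunit of lactate dehydrogenase, associated with glycolytic tissues, and Ldhb the H subunit, associated with oxidative tissues. Several of these genes are classical targets of the hypoxia-inducible factors (HIF), which bind a short core motif in their promoters.

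The genes lie on 8 chromosomes of GRCm38. Ldha (chromosome 7, 46841475 to 46855627, plus strand) and Aldoa (126795234 to 126800751, minus strand) share chromosome 7, and Hk2 (82725025 to 82774454, minus strand) and Ldhb (142490249 to 142507957, minus strand) share chromosome 6. The 4 promoters shown belong to the member that rose most in the loop of Henle (Hk2), to the pair that codes the subunits of lactate dehydrogenase (Ldha and Ldhb), and to Pgk1, a classical HIF target. Each is the 250 bases before a RefSeq transcription start (GRCm38.p6), written 5′ to 3′ on the gene's strand, and all 4 windows overlap no annotated exon. Capitals mark ACGTG or GCGTG on either strand (read as CACGT or CACGC on the other strand, overlapping matches both marked).
Hk2 (chr6:82774455-82774704, minus strand): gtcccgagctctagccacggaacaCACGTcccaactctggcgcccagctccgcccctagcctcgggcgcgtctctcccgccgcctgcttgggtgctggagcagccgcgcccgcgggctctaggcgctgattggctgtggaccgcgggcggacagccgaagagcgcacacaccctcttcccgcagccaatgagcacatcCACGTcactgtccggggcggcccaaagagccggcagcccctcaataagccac
Ldha (chr7:46845554-46845803, plus strand): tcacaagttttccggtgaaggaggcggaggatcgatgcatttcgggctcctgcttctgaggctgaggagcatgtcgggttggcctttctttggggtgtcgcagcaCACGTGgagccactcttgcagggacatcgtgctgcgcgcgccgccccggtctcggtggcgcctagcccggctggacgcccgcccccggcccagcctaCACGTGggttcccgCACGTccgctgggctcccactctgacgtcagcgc
Pgk1 (chrX:106186850-106187099, plus strand): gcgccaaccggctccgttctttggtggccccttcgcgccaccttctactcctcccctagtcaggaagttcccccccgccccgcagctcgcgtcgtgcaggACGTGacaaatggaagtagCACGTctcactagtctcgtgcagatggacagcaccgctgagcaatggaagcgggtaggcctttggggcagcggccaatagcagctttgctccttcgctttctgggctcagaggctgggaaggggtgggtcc
Ldhb (chr6:142507958-142508207, minus strand): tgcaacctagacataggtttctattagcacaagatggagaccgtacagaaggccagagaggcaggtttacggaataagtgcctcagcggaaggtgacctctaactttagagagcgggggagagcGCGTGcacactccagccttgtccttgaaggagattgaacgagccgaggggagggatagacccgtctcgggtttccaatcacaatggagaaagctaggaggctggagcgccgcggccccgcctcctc
The Ldha window held 5 matches on both strands together, the Hk2 and Pgk1 windows 2 each and the Ldhb window 1. The motif was present in 12 of 15 windows of the 10 genes and in at least 1 window of each gene, against 38.6% of 32851 windows of this length and 41.5% of genes with a window. A match is a run of letters and not evidence of binding.

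In control kidneys Pkm, Hk1 and Slc2a1 set PT apart from the distal classes. Pkm, the pyruvate kinase that ends glycolysis, stood at 5.88 ± 1.45 CPM (SD, n = 5 libraries) in PT, its lowest class, and at 492 in loop of Henle, 507 in intercalated cells, 563 in principal cells and 640 in distal tubule. Hk1, the broadly expressed hexokinase, was likewise lowest in PT at 1.30 CPM and highest in principal cells of the collecting duct at 255 ± 19.8, and in both cases the range of libraries did not overlap that of the next class. Slc2a1 was highest in principal cells at 260 ± 29.4 CPM, followed by frTEC (the study's name for tubular epithelial cells left in failed repair) at 213, intercalated cells at 103, loop of Henle at 56.7 and distal tubule at 51.1, with only 7.22 in endothelium and 6.87 in PT.

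Hk2, the inducible hexokinase, was highest in macrophages among the 11 classes with control pools, at 36.8 ± 14.3 CPM, and no UMI of it was counted in loop of Henle, distal tubule, frTEC, endothelium or Fibro 3, the stroma that the study calls migratory. Ldhb was highest in intercalated cells at 3232 CPM, followed by distal tubule at 2843, principal cells at 2422, loop of Henle at 2291 and PT at 1266, and was 70.6 to 247 in all other classes. Ldha had a different order, with frTEC at 533, principal cells at 457 and PT at 389 on top and podocytes at 90.2 at the bottom. Aldoa ran from 233 CPM in macrophages to 1589 in principal cells, Pgam1 from 68.7 in T/NK cells to 432 in frTEC, Pfkp from 5.25 in Fibro 3 to 134 in frTEC, and Pgk1 from 3.40 in macrophages to 63.6 in frTEC. The frTEC values rest on 2 control libraries, since the other 3 held fewer than 20 such cells.

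**Figure D1:**
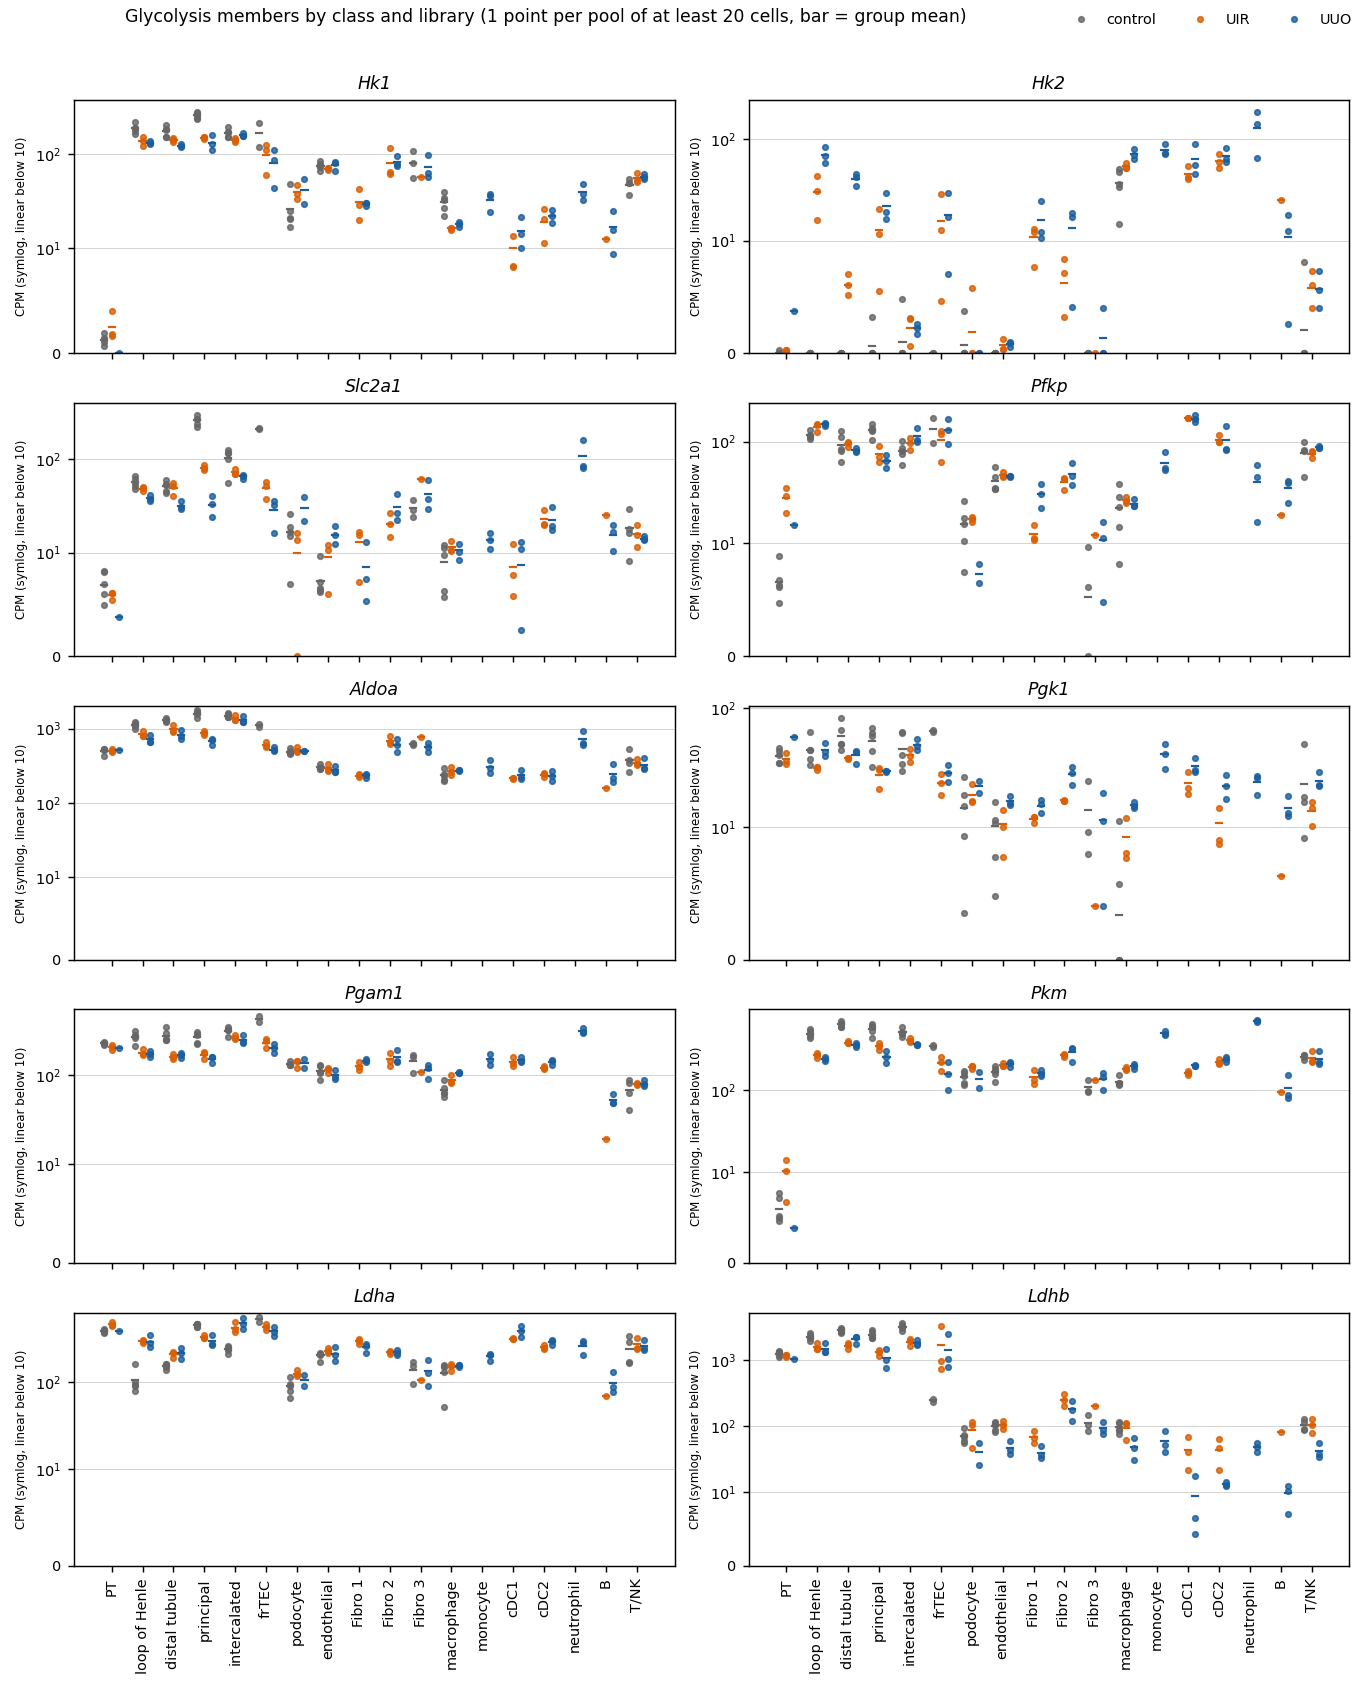
Level of each of the 10 genes in the cell classes of control, UIR and UUO kidneys, in CPM of the class pool (1 point per library, bar at the group mean, axis linear below 10 and logarithmic above). Pkm and Hk1 are near the floor in control PT (5.88 and 1.30) and high in the distal classes, and Hk2 is at 0 in control loop of Henle and distal tubule.

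Both injuries moved most of these genes in the distal classes, and UUO also moved 6 of 10 in macrophages. In loop of Henle, 9 of 10 were called in UIR (2 higher, 7 lower) and 8 in UUO (2 higher, 6 lower) by edgeR's quasi-likelihood test at a false discovery rate of 0.05 over all genes of the class. Among all genes tested there, 30.7% were called in UIR (14.3% lower) and 36.2% in UUO (16.7% lower). In distal tubule 7 (1 higher, 6 lower) and 9 (1 higher, 8 lower) were called, against 32.3% (15.9% lower) and 44.8% (22.0% lower) of all genes. In principal cells all 10 were called in both injuries (1 higher, 9 lower), against 17.2% (7.97% lower) and 31.6% (15.3% lower). Clusters led by Sprr2f and Aldh1a3, which no principal marker led, held 74.9% and 20.7% of principal cells in UUO. They held 46.1% and 9.40% in UIR and 0.427% and 1.28% in control. In intercalated cells 6 of 9 tested genes were called in UIR (1 higher, 5 lower) and 7 in UUO (1 higher, 6 lower), against 13.6% (7.42% lower) and 24.5% (13.1% lower). The median log2 fold change of the genes was -0.66 and -0.78 in loop of Henle, -0.72 and -0.99 in distal tubule, -0.85 and -1.09 in principal cells and -0.49 and -0.53 in intercalated cells, while the median over all genes tested lay between 0.01 and 0.06. Over the 10 classes that could be tested, 37 of 95 pairs of gene and class were called in UIR (8 higher, 29 lower) and 46 of 93 in UUO (10 higher, 36 lower), against 12.4% and 18.5% of all such pairs.

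**Figure D2:**
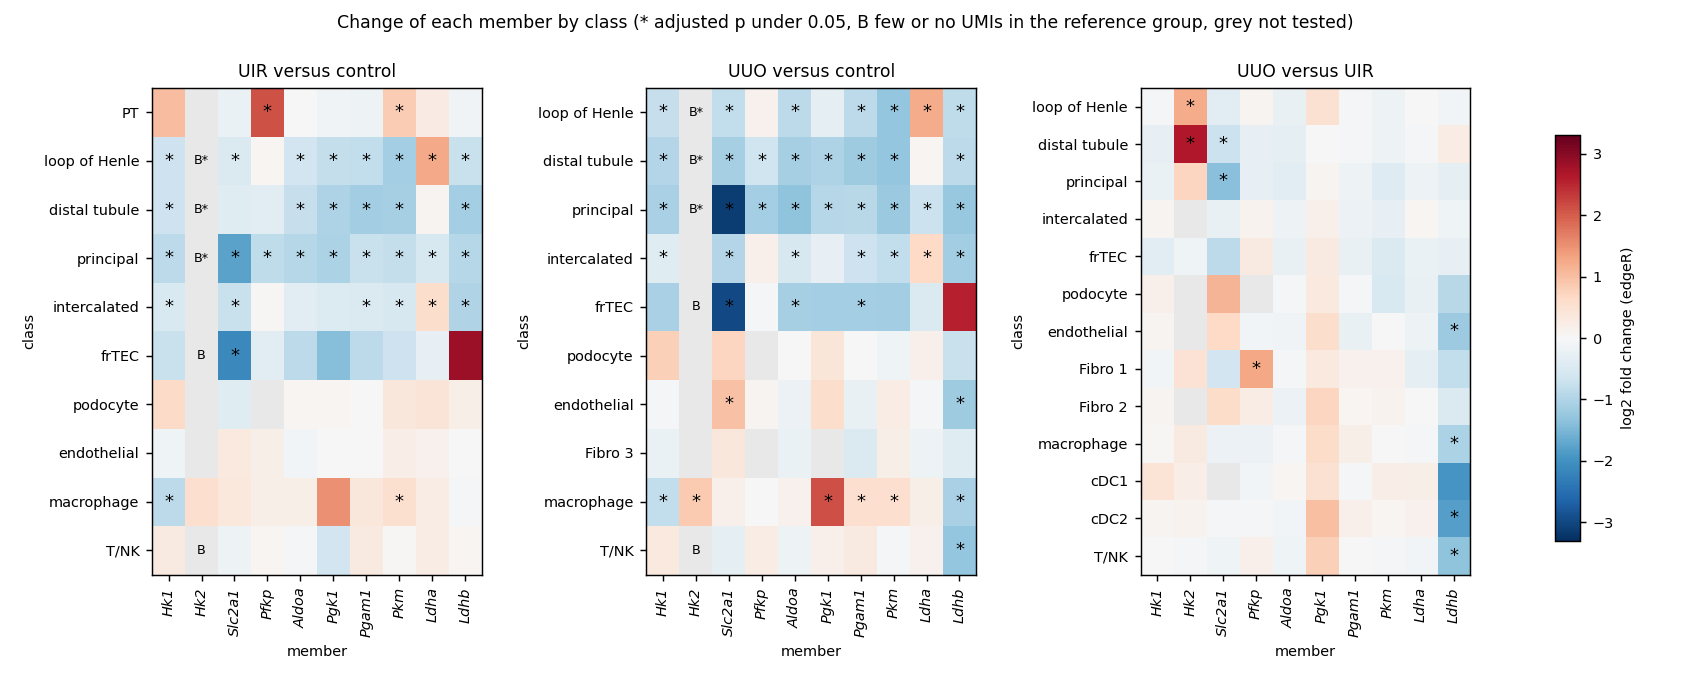
log2 fold change of each gene in each class for UIR against control, UUO against control and UUO against UIR (edgeR). A star marks a called pair, B a gene with few or no UMIs in the reference group and grey a pair without a fitted value. Ldha is higher in loop of Henle (1.25 and 1.24) and in intercalated cells (0.59 and 0.66) while Pkm, Hk1 and Ldhb are lower there, and Slc2a1 is lower in principal cells (-1.76 and -3.14) and frTEC (-2.12 and -2.99).

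Of the 10 genes, Slc2a1 had the lowest log2 fold change in principal cells in both injuries. It stood at 239, 271, 222, 297 and 271 CPM in the 5 control libraries, at 80.9, 87.2 and 75.8 in UIR and at 24.2, 32.8 and 40.2 in UUO. The 3 groups did not overlap, and the log2 fold change was -1.76 (SE 0.16, adjusted p = 1.64e-07, edgeR) in UIR and -3.14 (SE 0.17, adjusted p = 7.97e-11) in UUO. UUO was also below UIR, by -1.37 on the log2 scale (SE 0.18, adjusted p = 0.000188), where 2.83% of all genes were called. A cluster led by Sprr2f held 46.1% of principal cells in UIR and 74.9% in UUO, against 0.427% in control. Without it and the other principal cluster that no fixed marker led, a choice made after seeing the data, Slc2a1 stood at -0.85 in UIR (adjusted p = 0.000924, edgeR). Too few UUO cells were then left for a test. The remaining clusters still differed in share, since one led by Aqp2 and Aqp4 held 42.3% of control principal cells and 0.627% in UIR. Slc2a1 levels by cluster are given below.

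Slc2a1 fell in loop of Henle as well, from 48.4 to 66.7 CPM in control libraries to 45.8, 48.7 and 50.6 in UIR and 35.7, 41.6 and 37.4 in UUO. Here UIR libraries touched the control range (log2 -0.47, SE 0.15, adjusted p = 0.0227) and UUO libraries did not (-0.81, SE 0.16, adjusted p = 0.000319). In distal tubule Slc2a1 was 43.4 to 60.1 CPM in control, 40.7 to 55.9 in UIR and 29.2 to 35.7 in UUO. The UUO fall was called (-1.10, SE 0.17, adjusted p = 1.56e-05) and the UIR value of -0.39 was not (adjusted p = 0.0623). In intercalated cells it fell by 0.73 on the log2 scale in UIR (adjusted p = 0.0103) and by 0.98 in UUO (adjusted p = 0.000739), with 1 control library at 55.3 CPM, below all 6 injured libraries (61.6 to 78.9), and the other 4 at 101 to 127. The UIR calls were lost in loop of Henle without control replicate 1 or 4 (-0.38 and -0.42) and in intercalated cells without UIR replicate 3 (-0.68). Both UIR calls were also lost when pools were scaled to plain CPM. When cells were kept only below 15% mitochondrial RNA, no Slc2a1 call was left in loop of Henle (-0.26 and -0.61) or in distal tubule against control (-0.27 in UUO).

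In the hexokinase step, Hk2 appeared in distal classes where control kidneys had none or 2 UMIs, while Hk1 fell. Hk2 had 0 UMIs in all 5 control loop of Henle pools (1986287 UMIs together, so 3 counts would be 1.51 CPM). It stood at 16.2, 43.3 and 31.2 CPM in UIR and 59.2, 68.1 and 84.9 in UUO. That is at least 20.04-fold higher in UIR (adjusted p = 5.7e-05, edgeR) and at least 45.1-fold higher in UUO (adjusted p = 6.38e-07), each against the 3-count floor of the summed control pools. The level was uneven within the class, at 83.3 and 107 CPM in a cluster led by Psca that had no loop of Henle marker among its top genes, and at 13.4 to 30.1 in UIR and 14.0 to 23.4 in UUO in the clusters led by Umod, Slc12a1 and Pappa2. In distal tubule Hk2 was again at 0 in all 5 control libraries, at 6.05, 5.17 and 7.08 CPM in UIR and at 42.4, 34.9 and 45.5 in UUO, at least 9.50-fold and at least 62.4-fold higher (adjusted p = 5.12e-05 and 1.3e-09). In principal cells 1 control library had 2 UMIs and the others none. The UIR libraries stood at 5.53, 20.7 and 11.8 CPM and the UUO libraries at 16.5, 19.1 and 29.9, a ratio to control of 17.2 (exact 95% interval 4.53 to 145, counting error only) and 27.5 (7.44 to 230). Intercalated cells stayed at 0.607 to 3.13 CPM after injury, with Hk2 too low there to be tested. At the 15% mitochondrial limit the UIR calls of Hk2 were lost in loop of Henle and distal tubule and its UUO calls in both were not. Only 2 control libraries were left in each class there, again with 0 Hk2 UMIs.

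The RNA of empty droplets held Hk2 at 0.123 to 0.518 CPM in control, 4.51 to 5.62 in UIR and 12.0 to 20.3 in UUO libraries, so the UIR level in distal tubule (5.17 to 7.08) was close to that of free RNA and the UUO level (34.9 to 45.5) was above it. Free RNA was estimated at 3.85% to 8.31% of the UIR distal tubule pools, and Hk2 was still called there after its subtraction. Hk2 differed between the injuries in both classes, by 1.21 on the log2 scale in loop of Henle (SE 0.23, adjusted p = 0.00481, with 2.24% of all genes called) and by 2.64 in distal tubule (SE 0.24, adjusted p = 2.75e-06, with 9.39% called). The loop of Henle difference went to 0.22 (adjusted p = 1.0, edgeR) without the Psca cluster, which held 19.0% of the UIR cells and 50.9% of the UUO cells of the class. Hk1 moved the other way. In loop of Henle it stood at 186, 163, 218, 175 and 189 CPM in control, 151, 122 and 136 in UIR and 127, 131 and 136 in UUO, with no overlap. The log2 fold changes of Hk1 were -0.69 and -0.75 there, -0.68 and -0.96 in distal tubule, -0.86 and -1.07 in principal cells and -0.49 and -0.40 in intercalated cells, and all 8 were called, the last of them lost without control replicate 2 or UUO replicate 2 or 3 (-0.42 to -0.36). At plain CPM, a scaling chosen after seeing the data, Hk1 in intercalated cells stood at -0.25 and -0.06 and was called in neither injury, nor was it with pools of at least 50 cells (-0.45 and -0.36).

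From aldolase to pyruvate kinase, Pkm and Pgam1 fell in all 4 distal classes in both injuries, while Aldoa, Pgk1 and, a step earlier, Pfkp did so in some of them. Pkm fell in loop of Henle from 453, 553, 490, 438 and 528 CPM to 249, 281 and 267 in UIR (log2 -1.11, SE 0.13, adjusted p = 4.89e-07) and 251, 237 and 224 in UUO (-1.27, SE 0.13, adjusted p = 5.27e-08). Every injured library was below every control library. It fell by 1.10 and 1.28 on the log2 scale in distal tubule, 0.79 and 1.22 in principal cells and 0.54 and 0.82 in intercalated cells. Counts at the 3′ end do not separate the M1 and M2 forms of pyruvate kinase. Aldoa, an aldolase, stood at 1375 to 1769 CPM in control principal cells, 815 to 917 in UIR and 608 to 724 in UUO (log2 -0.95 and -1.32), and also fell in loop of Henle (-0.64 and -0.88) and distal tubule (-0.76 and -1.08). In intercalated cells its fall was called in UUO (-0.53) and not in UIR (-0.35, adjusted p = 0.0910). In intercalated cells in UIR neither Pkm (-0.30) nor Pgam1 (-0.25) was called at plain CPM, and neither was with pools of at least 50 cells (-0.45 and -0.46). Among the intercalated calls of these enzymes, that of Pkm in UIR was lost without UIR replicate 3 (-0.48), that of Pgam1 in UIR without UIR replicate 2 or 3 (-0.48 and -0.43) and that of Aldoa in UUO without UUO replicate 2 (-0.46). The Aldoa call was also lost at plain CPM (-0.20) and with pools of at least 50 cells (-0.47). Without the principal cell clusters led by no marker, Pkm (-0.36), Pfkp (-0.31) and Pgk1 (-0.64) were not called in principal cells in UIR.

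Pgam1, which moves the phosphate of phosphoglycerate, fell in all 4 distal classes in both injuries, by 0.49 to 1.14 on the log2 scale in UIR and 0.69 to 1.17 in UUO. In distal tubule it stood at 254, 247, 250, 296 and 348 CPM in control, 172, 160 and 151 in UIR and 176, 156 and 168 in UUO. Pgk1, the first enzyme of the pathway to yield ATP, fell in distal tubule (-1.02 in both) and principal cells (-1.03 and -0.94), and in loop of Henle in UIR (-0.79, adjusted p = 0.00221) but at -0.30 in UUO was not called there (adjusted p = 0.232). In intercalated cells Pgk1 was not called in either injury (-0.44, adjusted p = 0.209, and -0.27, adjusted p = 0.411), and its UIR call in loop of Henle was lost at the 15% mitochondrial limit (-1.18). Pfkp, the platelet-type phosphofructokinase, was not called in loop of Henle (0.05 and 0.14) or intercalated cells (0.05 and 0.16). At plain CPM Pfkp was called higher in UUO in both classes (0.37 and 0.49). It fell in principal cells from 137, 128, 150, 129 and 104 CPM to 62.9, 91.5 and 71.2 in UIR and 64.3, 54.5 and 74.2 in UUO (log2 -0.85 and -1.11), and in distal tubule in UUO (-0.65, adjusted p = 0.00151). The distal tubule call was lost at plain CPM (-0.22). Relatives of similar sequence (Aldoart1, Aldoart2, Pgk1-rs7, Pgk2, Pgam2 and Ldhal6b) and the antisense Hk1os were counted as genes of their own, and reads that could be either are uncertain.

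The RNA of Ldha and Ldhb changed in opposite directions in loop of Henle and intercalated cells. In loop of Henle Ldha stood at 93.0, 102, 90.7, 80.3 and 165 CPM in control, 310, 282 and 302 in UIR and 348, 282 and 255 in UUO. All 6 injured libraries were above the highest control library, and the log2 fold change was 1.25 in UIR (SE 0.18, adjusted p = 8.87e-06) and 1.24 in UUO (SE 0.18, adjusted p = 8.27e-06). Ldhb fell in the same cells, from a range of 1959 to 2633 CPM in control to one of 1464 to 1833 in UIR (log2 -0.75, SE 0.16, adjusted p = 0.00104) and 1322 to 1864 in UUO (-0.83, SE 0.16, adjusted p = 0.000305). Intercalated cells did likewise. Ldha rose there from 243, 261, 236, 257 and 213 CPM to 490, 383 and 410 in UIR (0.59, SE 0.14, adjusted p = 0.00606) and 550, 474 and 413 in UUO (0.66, SE 0.14, adjusted p = 0.00134), and Ldhb fell from a control range of 2778 to 3666 CPM to ranges of 1671 to 2095 and 1684 to 2034 (-1.0 and -1.14). In principal cells both fell, Ldha by 0.53 (not called without UIR replicate 3, at -0.49) and 0.70 on the log2 scale and Ldhb by 0.94 and 1.24. In distal tubule Ldhb fell by 1.12 and 0.87, and Ldha was not called (0.10 and 0.07) although all 6 injured libraries (185 to 249 CPM) were above the control libraries (139 to 162).

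The share of Ldha in all Ldha and Ldhb UMIs of a pool does not depend on how libraries are scaled. In loop of Henle it was 4.41% ± 1.12 (SD, n = 5) in control, 15.8% ± 1.23 (n = 3) in UIR and 16.4% ± 0.989 (n = 3) in UUO. It was 7.02%, 18.4% and 20.7% in intercalated cells, 5.17%, 11.2% and 9.59% in distal tubule and 16.0%, 20.1% and 22.2% in principal cells. In principal cells the UIR difference turned to -1.29 points at the 15% mitochondrial limit and -0.310 without the clusters led by no marker, and the UUO difference of 6.18 points went to 0.491 at that limit. In PT the share was 23.6% in control and 28.5% in UIR, and the libraries no longer separated at the 15% or 50% mitochondrial limit or with doublets kept (3.37 to 4.82 points). In UUO it was also higher in endothelium (67.1% to 81.8%) and macrophages (55.7% to 76.5%), but once free RNA was subtracted the differences of 14.7 and 20.8 points went to 4.98 and -0.466, and neither was separate any longer. Of 20 comparisons of an injury with control, 14 had ranges that did not overlap, and 11 of these reached the smallest two-sided p that an exact permutation test can give with 3 libraries against 5, p = 0.0357, all higher. After Benjamini-Hochberg adjustment over the 20 comparisons the smallest p was 0.0649, so none passed 0.05. With these numbers of libraries and comparisons none could have passed, so the adjusted values decide nothing here. In frTEC the share was 68.3% in 2 control libraries and 26.8% (SD 14.1) and 24.3% (SD 9.66) after injury (exact permutation p = 0.2, the smallest possible there). The remaining control libraries had fewer than 20 frTEC cells and were left out. Over all control frTEC cells Ldha had 419 UMIs and Ldhb 373, a lower share than in the 2 libraries tested.

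**Figure D3:**
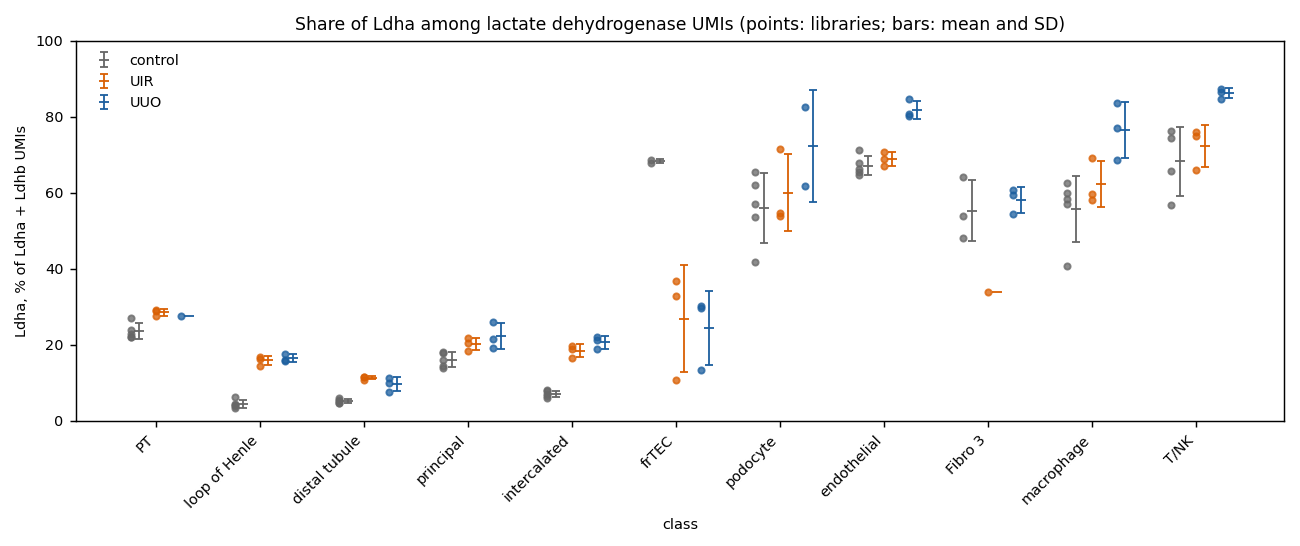
Ldha as a percent of Ldha plus Ldhb UMIs, 1 point per library with the mean and SD of the group beside it, by class and group. Loop of Henle stands at 4.41%, 15.8% and 16.4%, and intercalated cells at 7.02%, 18.4% and 20.7%, with no overlap of injured and control libraries.

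The distal classes were made of different clusters in control and injured kidneys. A cluster led by Egf held 96.7% of control loop of Henle cells, 5.34% in UIR and 0.535% in UUO. The injured cells lay in a cluster led by Umod (0%, 49.8% and 29.7%), in smaller ones led by Slc12a1 (1.86%, 16.2% and 11.5%) and Pappa2 (1.49%, 9.62% and 7.36%), and in one led by Psca (0%, 19.0% and 50.9%). The last had no loop of Henle marker among its top 10 genes and carried Slc12a1, the salt carrier of the thick limb, at 866 CPM in UIR and 599 in UUO against 7755 in the control Egf cluster. Hk2 was concentrated in the Psca cluster, at 83.3 CPM in UIR and 107 in UUO, against 14.6 and 14.0 in the Umod cluster and 0 in the Egf cluster of control and UIR. Ldha was high in every cluster of injured cells apart from the Egf one, at 289 and 288 CPM in the Umod cluster, 316 and 309 in the Psca cluster, 327 and 317 in the Pappa2 cluster and 257 and 242 in the Slc12a1 cluster, while the Egf cluster had 97.3 in control and 127 in UIR. These are sums over the libraries of a group and were not tested.

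In distal tubule a cluster led by Tmem52b was absent from control and held 62.3% of the class in UIR and 90.5% in UUO. Within it Hk2 was 8.13 CPM in UIR and 43.1 in UUO. The cluster led by S100g was present in all groups (27.6%, 25.6% and 4.98%), and within it Pkm went from 499 CPM in control to 322 in UIR, Ldhb from 2404 to 1361 and Ldha from 205 to 213. In principal cells a cluster led by Sprr2f held 0.427%, 46.1% and 74.9%, with Slc2a1 at 38.4 CPM in UIR and 32.1 in UUO, while in a cluster led by Aqp2, the water channel of these cells, and Aqp3 (56.0%, 43.9% and 4.35%) Slc2a1 was 225 in control and 144 in UIR. A further cluster led by Aqp2 and Aqp4, with Slc2a1 at 322 CPM in control, held 42.3% of control principal cells, 0.627% in UIR and none in UUO. The 3 clusters of intercalated cells were present in every group in different shares. The cluster led by Atp6v1g3, a proton pump subunit, held 59.9%, 46.8% and 21.4%, and the one led by Aqp6 24.3%, 41.9% and 75.5%. Within the Aqp6 cluster Ldha was 235, 407 and 459 CPM and Ldhb 2798, 1844 and 1802, and within the Atp6v1g3 cluster Ldha was 225, 572 and 465 CPM in control, UIR and UUO and Ldhb 5268, 3003 and 2810.

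**Figure D4:**
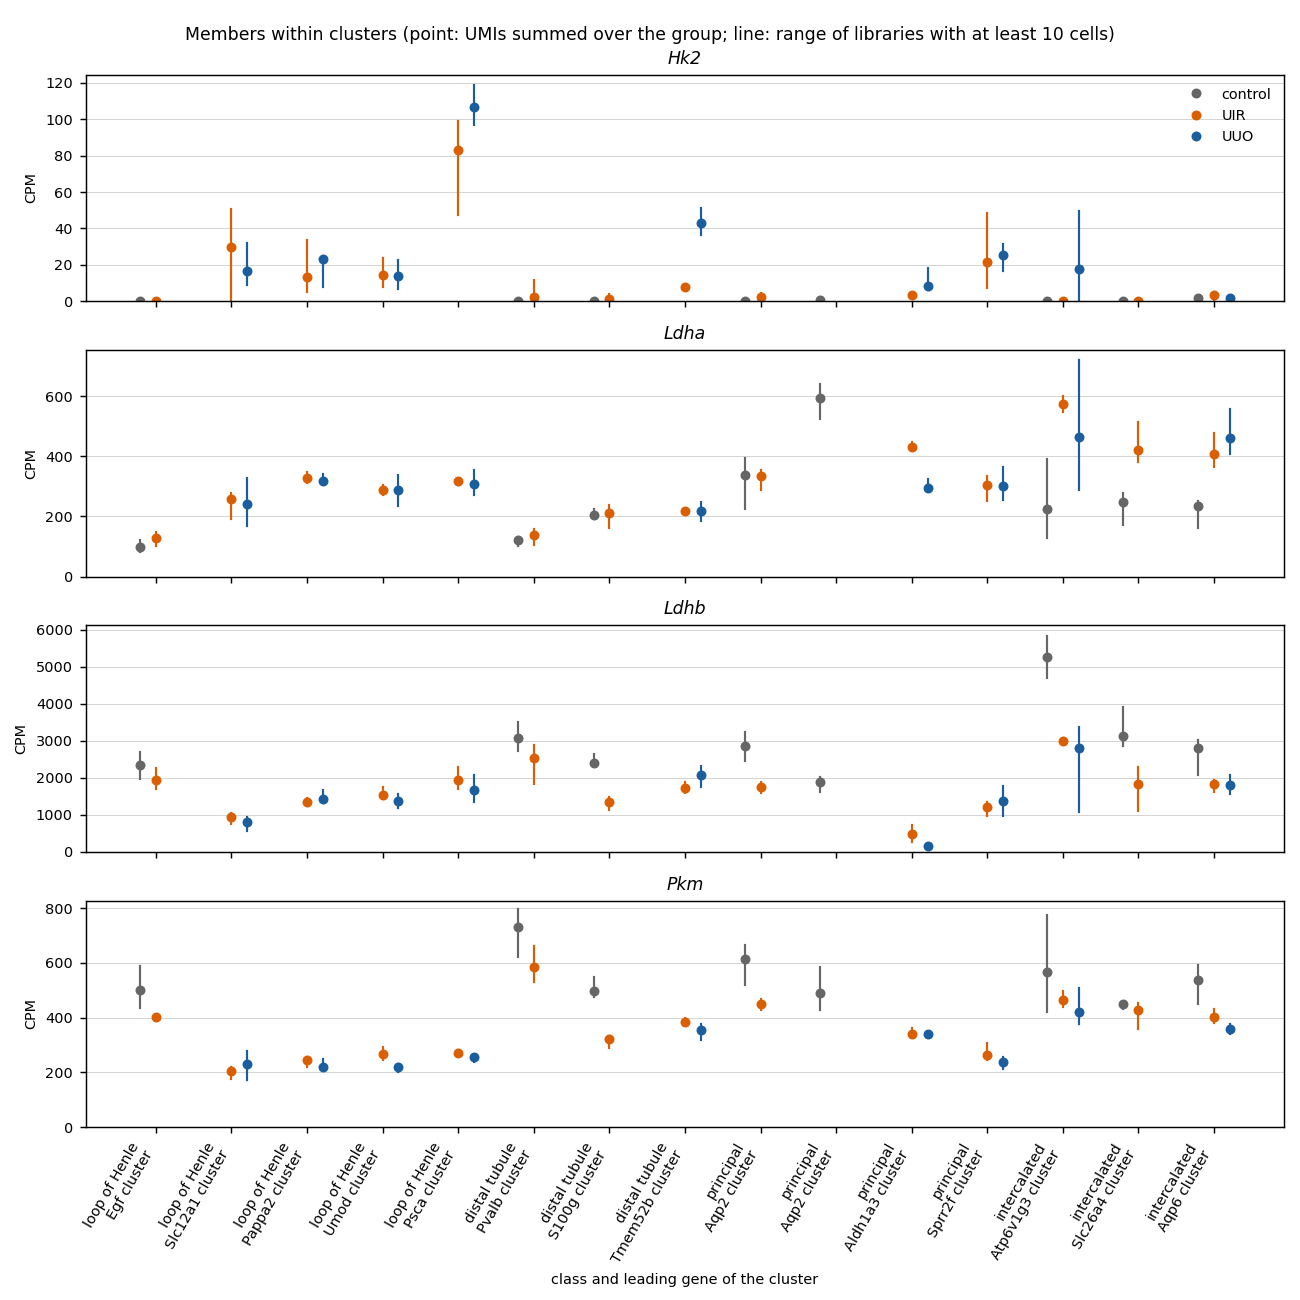
Levels of Hk2, Ldha, Ldhb and Pkm in the clusters that make up the distal classes, in CPM, with a point for the summed cells of a group and a line over the range of libraries with at least 10 cells. Hk2 stands at 83.3 and 107 in the Psca cluster against 14.6 and 14.0 in the Umod cluster, and Ldha in the Atp6v1g3 intercalated cluster goes from 225 to 572 and 465.

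Without the clusters that no fixed marker led (Psca in loop of Henle, Aldh1a3 and Sprr2f in principal cells), a choice made after seeing the data, loop of Henle still had 2 genes higher and 7 lower in UIR and 2 higher and 6 lower in UUO. Hk2 was still called (adjusted p = 0.00894 and 0.00705), at the lower levels given above, and Ldha stood at 1.18 and 1.15 on the log2 scale. In principal cells 6 of 9 genes were called lower in UIR and none higher. Hk2, the gene called higher there in the reported fit, was too low to be tested. The share of all genes called is not given for this alternative, so its counts have no background to be read against.

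Mitochondrial RNA, cell depth and scaling moved with these results. The mitochondrial share of the loop of Henle pools was 19.0% to 23.9% in control, 9.50% to 11% in UIR and 7.94% to 8.87% in UUO, and the median UMIs per cell were 5450, 12000 and 14172. Their part in the results was not tested beyond the alternatives named here and below. When cells were kept only below 15% mitochondrial RNA, 16 of 54 pairs were called in UIR and 20 of 47 in UUO. Shares of all genes called are given throughout for the reported fit only, so counts under alternatives carry no such background. When pools were scaled to plain CPM in place of TMM (a choice made after seeing the data), the median of all genes moved up by 0.23 on the log2 scale in loop of Henle, by 0.35 and 0.43 in distal tubule, 0.08 and 0.10 in principal cells and 0.24 and 0.34 in intercalated cells. Intercalated cells then had 1 gene higher and 1 lower in UIR and 2 higher and 4 lower in UUO, distal tubule 2 higher and 6 lower and 2 higher and 7 lower, with Ldha called higher (0.46 and 0.50), and loop of Henle 2 higher and 6 lower and 3 higher and 6 lower.

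In proximal tubule cells of UIR only Pfkp and Pkm were called, and the median log2 fold change of the 9 tested genes was -0.004. Pfkp rose from 6.31, 6.73, 6.1, 4.70 and 8.90 CPM in control to 19.9, 29.5 and 35.3, with no overlap (log2 2.09, SE 0.19, adjusted p = 4.42e-06). Pkm rose from a control range of 4.54 to 7.72 CPM to 10.3, 14.0 and 6.69, where UIR replicate 3 lay inside the control range (0.84, SE 0.24, adjusted p = 0.0309). The Pkm call was lost without control replicate 2 or 4 or UIR replicate 1 or 2 (0.50 to 0.85). These were the 2 of 9 tested genes called, both higher, against 13.1% of all genes. Slc2a1 (-0.23), Pgam1 (-0.16), Pgk1 (-0.12) and Ldhb (-0.11) were not called. Hk1 (1.02, adjusted p = 0.107) and Ldha (0.26, adjusted p = 0.0760) were not called, although Ldha stood at 370 to 412 CPM in control and 451 to 495 in UIR with no overlap, and Aldoa was at 0.00. Free RNA of empty droplets held Pfkp at 9.92 to 23.5 CPM in control and 25.8 to 48.7 in UIR libraries, and Pkm at 44.2 to 114 and 81.8 to 132. After subtraction of free RNA, Pfkp was at 2.22 and still called, and Pkm was at 1.26 and not called. All 5 macrophage markers had UMIs in the UIR PT pools and summed to 38.0 to 64.2 CPM, against 2.15 to 3.42 in the control pools, and their part in the result was not tested. UUO left 62 cells named PT in all and 1 pool, so PT was not tested there in the reported fit. A low-UMI cluster with PT genes, 3608 cells over all groups, stayed unnamed. With pools of at least 10 cells, a choice made after seeing the data, 0 of 9 genes were called by edgeR (2 with an unadjusted p under 0.05), and Pfkp stood at 2.20 (adjusted p = 0.0608). With the low-UMI cluster added to PT, edgeR called none of them in UUO either, and Pfkp stood at 1.91 (adjusted p = 0.0695).

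The UIR change differed between loop of Henle and PT for 8 of 10 genes, by the interaction term of a fit over both classes with the library as a block, against 17.6% of all genes tested. The difference (loop of Henle minus PT, log2) was -2.0 for Pfkp, -1.87 for Pkm, -1.72 for Hk1, -0.60 for Pgk1, -0.59 for Pgam1 and Aldoa, -0.58 for Ldhb and 1.06 for Ldha. Slc2a1 (-0.19) and Hk2 (adjusted p = 0.0518), which had no control UMIs in loop of Henle, were not called, and Hk2 was called under 15 alternatives. Pools of at least 10 cells gave 4 calls and finer clustering 5, where Pgk1, Pgam1, Aldoa and Ldhb were not called at differences of -0.63 to -0.57. Adding the low-UMI cluster with PT genes to PT also lost the calls of these genes. A mitochondrial limit of 15% gave 5, without Ldha (0.91), Pgam1 (-0.85) and Pgk1 (-0.96). The Hk1 call was lost without UIR replicate 2 (-0.89) and that of Pgk1 without control replicate 1 or 5 or UIR replicate 3 (-0.56 to -0.48).

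In frTEC the tests rest on 2 control libraries. The class's own markers summed to 5799 to 6462 CPM in these, 3283 to 4128 in UIR and 2786 to 3321 in UUO, and the 7 PT markers other than Cyp4b1 to 229 to 255, 219 to 952 and 89.0 to 807, and their part in the results was not tested. Slc2a1 fell from 211 and 215 CPM to 57.7, 37.2 and 52.1 in UIR (log2 -2.12, SE 0.30, adjusted p = 0.0169) and 35.9, 16.3 and 32.7 in UUO (-2.99, SE 0.32, adjusted p = 0.00326). The UIR call was lost without either control library or without UIR replicate 1 (-2.25 to -2.08). It was the only gene of the 10 called in UIR, against 1.19% of all genes, although Aldoa (adjusted p = 0.0514) was called under 11 alternatives and Pgk1 (adjusted p = 0.0521) under 10, DESeq2 among them. Aldoa (-1.09) and Pgam1 (-1.12) were also lower in UUO, where 3.20% of all genes were called, and both calls were lost without either control library, that of Pgam1 also without UUO replicate 1 or 3 (-1.21 to -0.98 over both genes). Ldhb stood at 259 and 236 CPM in control, 971, 3367 and 747 in UIR and 1037, 2500 and 801 in UUO. Injured libraries were all higher than both and spread widely, the 3 control libraries with 11 to 19 frTEC cells and so outside the test stood at 359, 620.1 and 1080.3, and the change was not called (2.83, adjusted p = 0.128, and 2.56, adjusted p = 0.112), although it was with doublets kept or with no filter on low counts. In podocytes 0 of 8 genes were called by edgeR in either injury (3 and 1 with an unadjusted p under 0.05), against 1.18% and 2.15% of all genes.

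In endothelium 2 of 9 genes were called in UUO, against 12.5% of all genes, and each call was lost under some alternatives. Slc2a1, the carrier that endothelium of tight barriers uses, rose from 9.71, 6.41, 7.19, 6.21 and 6.56 CPM to 19.1, 15.3 and 12.5 (log2 0.98, SE 0.30, adjusted p = 0.0384), and 6.05 to 12.1 in UIR was not called. This call was lost when any of control replicates 2 to 5 or UUO replicates 1 or 2 was left out (0.80 to 1.0), and also with doublets kept (0.69), after subtraction of free RNA (0.98) and with DESeq2 (0.98). Ldhb fell from a control range of 82.3 to 119 CPM to 60.8, 38.3 and 44.3 (-1.18, SE 0.17, adjusted p = 8.14e-05), and this was not called after subtraction of free RNA (-0.91). In UIR 0 of 9 were called by edgeR, none with an unadjusted p under 0.05, against 2.06%.

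In macrophages 6 of 10 genes were called in UUO, 4 of them higher. Macrophages had a median of 3285 UMIs per cell in control against 1157 (UIR) and 1151 (UUO), and the median mitochondrial share of their pools was 13.8%, 8.41% and 5.80%. The part of these in the results was not tested beyond the alternatives given. Hk2 stood at 34.0, 36.6, 51.1, 14.6 and 47.6 CPM in control, 59.1, 52.4 and 52.6 in UIR and 69.4, 64.8 and 79.5 in UUO. Both injured groups lay above all control libraries, and the rise was called in UUO (0.87, SE 0.22, adjusted p = 0.0122) and not in UIR (0.56, adjusted p = 0.163). Pkm stood at 114 to 152 CPM in control, 193, 182 and 176 in UIR (0.54, SE 0.14, adjusted p = 0.0256) and 183, 209 and 197 in UUO (0.56, SE 0.14, adjusted p = 0.0122). Pgam1 (0.55, adjusted p = 0.0440) and Pgk1 were higher in UUO, the latter from 4 control UMIs in all, at 0 CPM in 3 of 5 control libraries and 14.5 to 16.1 in UUO (2.11, SE 0.62, adjusted p = 0.0323). Hk1 fell, from a control range of 22.2 to 39.8 CPM to one of 15.8 to 16.5 in UIR (-0.87, adjusted p = 0.0475) and 16.7 to 18.8 in UUO (-0.82, adjusted p = 0.0410). The test called 2 of 10 genes in UIR and 6 in UUO, against 5.94% and 9.60% of all genes. Leaving out 1 library lost the UIR calls of Hk1 (any of the 8 libraries compared, -0.96 to -0.78) and Pkm (control replicates 1 to 4, UIR replicates 1 and 2, 0.51 to 0.54). It lost the UUO calls of Hk1 (control replicates 2 to 4, UUO replicates 2 and 3, -0.82 to -0.74), Pgk1 (control replicates 2 to 5, UUO replicate 1, 1.70 to 2.30), Pgam1 (control replicates 1, 3, 4 and 5, UUO replicates 1 and 2, 0.49 to 0.54) and Pkm (UUO replicate 2, 0.47). At the 15% mitochondrial limit the UUO calls of Hk1 (-0.35), Pgk1 (2.0) and Pgam1 (0.60) were lost, and DESeq2 called neither Pgk1 nor Pgam1 (2.09 and 0.51). Leaving out control replicates 4 and 5 together lost the UUO call of Hk2 (0.82).

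Ldhb fell in macrophages and T/NK cells in UUO. In macrophages it stood at 77.2 to 117 CPM in control, 110, 111 and 61.5 in UIR and 47.0, 31.2 and 67.8 in UUO (log2 -1.07, SE 0.26, adjusted p = 0.00990, UUO against control). In T/NK cells it stood at 89.1, 117, 128 and 91.6 CPM in 4 control libraries and 56.0, 38.3 and 34.1 in UUO (-1.27, SE 0.30, adjusted p = 0.0168), the only gene of 10 called there, against 2.21% of all genes. That call was lost without control replicate 2, 4 or 5 (-1.30 to -1.16). In T/NK cells of UIR 0 of 10 were called by edgeR, none with an unadjusted p under 0.05, against 0.548%. Free RNA held Ldhb at 538 to 1367 CPM in control, 593 to 1020 in UIR and 426 to 531 in UUO, several times its level in these cells. The 7 PT markers other than Cyp4b1, a measure of free RNA in cells that should lack them, summed to 219 to 551 CPM in control macrophages, 108 to 217 in UIR and 15.7 to 86.8 in UUO. After subtraction of free RNA the macrophage difference was 0.30, opposite in sign. The T/NK difference went to -0.49 (adjusted p = 0.825, edgeR) and the endothelial one to -0.91 (adjusted p = 0.450), and neither was called.

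Stroma could be tested mainly as a compartment, since Fibro 1 and Fibro 2, the study's secretory and contractile fibroblasts, had 10 and 4 control cells. Pooled stroma had 3 genes higher in UIR, against 16.2% of all genes, and 4 higher and 1 lower in UUO, against 17.8%. Ldha rose by 1.03 (SE 0.22, adjusted p = 0.00210) and 0.86 (SE 0.22, adjusted p = 0.00857) on the log2 scale and Pkm by 0.95 and 0.88. Pfkp had 2 control UMIs, and its ratio was 4.69 (exact 95% interval 1.27 to 39.2) and 6.42 (1.75 to 53.4). Aldoa fell by 0.69 in UUO. Hk2 was called higher in UUO against 3 control pools at 0, with UUO libraries at 8.95 to 21.2 CPM. A control library outside the test, with 9 stromal cells, held 3 Hk2 UMIs, so that all control stroma summed together stood at 6.88 CPM. With doublets kept, Pkm stood at -0.05 in both injuries. These pools mix different fibroblasts: Fibro 1, Fibro 2 and Fibro 3 had 10, 4 and 78 cells in control, 358, 301 and 73 in UIR and 514, 132 and 180 in UUO. Without 1 control or injured library the calls of Pfkp in both injuries and of Hk2 and Ldha in UUO were lost (Ldha at 0.65 without control replicate 4). The Pfkp calls in both injuries and the Hk2 call were also lost with doublets kept and with DESeq2. In Fibro 3 itself 0 of 7 genes were called in UUO by edgeR, none with an unadjusted p under 0.05, against 2.10% of all genes.

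Pooling all tubular cells gave some genes a different sign from that in loop of Henle. The pool held 4922 PT cells in control, 1298 in UIR and 62 in UUO, against 269, 1330 and 747 loop of Henle cells. Hk1 (0.82 and 0.93), Pkm (0.47 and 0.51) and Pfkp (1.36 and 1.41) were higher in this pool and Ldha lower (-0.51 and -0.81), the reverse of loop of Henle for Hk1, Pkm and Ldha. The test called 8 genes in UIR and 10 in UUO, against 63.5% and 70.1% of all genes, and scaling to plain CPM moved the median of all genes by 0.47 and 0.62 and turned the signs of Ldhb and Aldoa in both injuries and of Slc2a1 in UUO. Ldha then stood at -0.039 and -0.20 and was not called, and Pkm was not called at a mitochondrial limit of 50% (0.11 and 0.13). Pooled immune cells had 1 gene called in UIR, Pfkp at 0.88, against 2.64% of all genes, and 4 in UUO, against 7.02%, with Pgk1 at 1.07, Pgam1 at 0.52, Pkm at 0.42 and Ldhb at -1.33. Leaving out 1 library lost each of these calls but that of Ldhb, which stood at 0.21, opposite in sign, after subtraction of free RNA.

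The injuries themselves differed in 9 of 124 pairs of gene and class, against 2.27% of all pairs in the 13 classes tested. Besides Hk2 in loop of Henle and distal tubule and Slc2a1 in principal cells, these were Ldhb, lower in UUO than UIR in endothelium (-1.19), macrophages (-1.03, with 1.62% of all genes called), T/NK cells (-1.33) and type 2 dendritic cells (cDC2, -1.81), Slc2a1 in distal tubule (-0.71), and Pfkp in Fibro 1 (1.28). In cDC2 Ldhb stood at 47.4, 64.6 and 22.2 CPM in UIR and 12.9, 12.4 and 14.4 in UUO. In Fibro 1 Pfkp stood at 15.3, 11.2 and 10.7 CPM in UIR and 38.5, 30.3 and 22.2 in UUO, on 31 and 126 UMIs, with an adjusted p of 0.0298 by edgeR that was lost without any UIR library or without UUO replicate 1 or 2 (1.08 to 1.42). The Ldhb calls in macrophages and cDC2 and that of Slc2a1 in distal tubule were lost without UIR replicate 2 (-0.86, -1.39 and -0.61), among others. After subtraction of free RNA the Ldhb differences between the injuries were not called in endothelium (-1.55, adjusted p = 0.310, edgeR), macrophages (-0.66, adjusted p = 1.0) or T/NK cells (-0.32, adjusted p = 1.0), and Ldhb was too low in cDC2 to be tested.

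Genes that decide the fate of pyruvate fell beside these enzymes in the distal classes. Of 12 genes for the mitochondrial pyruvate carrier, pyruvate dehydrogenase, its kinases and pyruvate carboxylase, 10 were lower in UIR and 12 in UUO in loop of Henle (medians -1.17 and -1.32 on the log2 scale), 10 and 12 in distal tubule (-1.03 and -1.38), 7 and 9 in principal cells (-0.55 and -0.67) and 8 and 9 of 11 tested in intercalated cells (-0.60 and -0.97), and none was higher in these classes. Among all genes tested, the shares called lower in UIR and UUO were 14.3% and 16.7% in loop of Henle, 15.9% and 22.0% in distal tubule, 7.97% and 15.3% in principal cells and 7.42% and 13.1% in intercalated cells. Mpc1, a subunit of the carrier that brings pyruvate into mitochondria, fell in all 4 classes by 0.60 to 1.70 in UIR and 0.82 to 2.17 in UUO. Pdha1, a catalytic subunit of pyruvate dehydrogenase, fell in the same 4 classes by 0.66 to 1.27 and 0.69 to 1.72. In PT 1 of the 12 was lower in UIR, where 13.1% of all genes were called in either direction. In frTEC, T/NK cells and podocytes none was called against control, where 0.548% to 3.20% of all genes were called. The frTEC medians were -0.53 in UIR and -0.39 in UUO, on 2 control libraries, so the absence of calls there does not show an absence of change. Pdk1, a kinase that switches pyruvate dehydrogenase off, was higher in endothelium (1.06 and 0.90) and lower in distal tubule and intercalated cells in both injuries.

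Across 46 further genes of glucose entry, glycolysis, lactate handling and pyruvate fate, loop of Henle had 19 lower in UIR and 23 in UUO of 32 tested and none higher, distal tubule 20 and 25 lower of 31 with 2 higher in each, principal cells 18 and 20 of 28 with 1 and 2 higher, and intercalated cells 14 and 18 of 26 with none higher, beside the same shares of all genes called lower. PT had 1 higher and 2 lower of 37, macrophages 3 lower in UIR and 2 higher and 4 lower in UUO of 29, and endothelium 1 higher and 1 lower in UIR and 1 higher and 7 lower in UUO of 28. All genes were called in either direction at 13.1% in PT, 5.94% and 9.60% in macrophages and 2.06% and 12.5% in endothelium, so the PT count lay below that background. Eno1, enolase, and Gapdh fell with the members in distal tubule and principal cells, Eno1 by 0.78 to 1.08 in 3 classes in UIR, and Eno1 was higher in UUO macrophages (0.68). Hkdc1, a further hexokinase-like gene, rose in principal cells (3.39 and 3.60). Slc16a7, a lactate and pyruvate carrier, fell in all 4 distal classes (log2 -3.08 to -1.06 in UIR, -4.08 to -1.86 in UUO). Emb, a partner protein of such carriers, rose in distal tubule (1.84 and 1.55).

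Of 12 other HIF-responsive genes, some rose and some fell in principal cells, distal tubule and loop of Henle. Of 10 tested, loop of Henle had 4 higher and 2 lower in UIR and 3 and 2 in UUO, distal tubule 2 and 4 in UIR and 3 and 6 in UUO, and principal cells 1 and 4 in UIR and 1 and 5 in UUO. All genes were called in either direction at 30.7% and 36.2% in loop of Henle, 32.3% and 44.8% in distal tubule and 17.2% and 31.6% in principal cells. Of 9 tested in intercalated cells, 1 was higher and 2 lower in UIR and 0 and 4 in UUO (13.6% and 24.5% of all genes), and of 10 in frTEC, 0 were higher and 2 lower in each injury (1.19% and 3.20%). Egln3, an oxygen sensor that HIF induces, was higher in principal cells, distal tubule and loop of Henle in UIR (1.13 to 1.93) and in principal cells and distal tubule in UUO. Vegfa, the vessel growth factor, was lower in 7 classes in UIR and 6 in UUO, PT among them in UIR. Adm, a vasodilator peptide, was lower in distal tubule, principal and intercalated cells (-2.58 to -1.81 in UIR, -3.20 to -2.39 in UUO) and higher in endothelium in UUO (1.91).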

How the data were processed

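The authors deposited unfiltered 10x matrices of raw UMI counts per gene and barcode for 11 kidney libraries (3′ chemistry, cold-active protease digestion), aligned to mm10 with Cell Ranger. The submitters' processing notes give version 3.1.0 and the study's methods another, so the version is uncertain. Empty droplets were included, 28692 genes were counted, and no normalisation had been applied to the deposited counts. The depth of each library sets the precision, and intervals cover counting error only.

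Cells were called from the UMI ranks and the profile of empty droplets, kept at up to 30% mitochondrial and 5% hemoglobin UMIs and at least 200 genes, and the 7.5% with the highest simulated-doublet score were removed. Leiden clusters (leidenalg 0.10.2, scikit-learn 1.9.0, Python 3.11.15), built without the genes reported here, the pathway lists or the marker genes, were named from fixed markers, so that classes may differ from the study's. Raw counts were summed per class and library (at least 20 cells) and tested with edgeR 4.0.16 (R 4.3.3, TMM, filterByExpr, quasi-likelihood F test, all 3 groups in 1 fit, no covariates, and the library as a block in the interaction fit). P-values were adjusted by Benjamini-Hochberg over all genes of a class, with 0.05 as the limit. The scripts were tested on simulated data. DESeq2 1.42.0, other limits, scalings and library sets were tried as alternatives. The Ldha share was compared by an exact two-sided permutation test over libraries. A gene with 0 control UMIs was compared with a floor of 3 counts over the summed control pools. The 10 genes, the gene lists and the marker lists were chosen with earlier results of these data known, and all 10 genes are named in the text. Other genes are named where they belong to the lists. A gene of the pathway list enters its counts and is not reported here by itself. Classes with fewer than 2 pools in a group were not compared.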

Additional observations from a re-analysis of the deposited data

Results flagged for a closer look

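Of 80 sets of 4 or 5 control libraries tested for 1 value far from the rest, 7 were flagged by Dixon's criterion, where chance flags about 1 in 20. Control replicate 5 had 165 CPM of Ldha in loop of Henle (the other 4 at 80.3 to 102), 421 CPM of Aldoa in PT (others 510 to 536) and 152 CPM of Pkm in macrophages (others 114 to 122). Control replicate 1 had 9.71 CPM of Slc2a1 in endothelium (others 6.21 to 7.19). Control replicate 2 had 52.9 CPM of Ldha in macrophages (others 132 to 159). Control replicate 3 had 48.4 CPM of Hk1 in podocytes (others 16.8 to 25.0). Control replicate 4 had 174 CPM of Ldha in endothelium (others 208 to 218).

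For 8 genes the change in UIR differed between loop of Henle and PT by the interaction term (edgeR, adjusted over all genes). The difference, loop of Henle minus PT on the log2 scale, was -1.72 for Hk1, -2.0 for Pfkp, -0.59 for Aldoa, -0.60 for Pgk1, -0.59 for Pgam1, -1.87 for Pkm, 1.06 for Ldha and -0.58 for Ldhb.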

How the results depend on the processing

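Of 184 single results, 146 were called in the reported fit, and over 5340 pairs of result and alternative 4892 kept their direction and side of the threshold, 317 lost a call, 117 gained one and 14 turned sign. The calls by class went from 37 (UIR) and 46 (UUO) to 16 and 20 at a mitochondrial limit of 15%, where 54 and 47 pairs could be tested, so fewer cells and classes entered. That limit gave 22 calls in compartment pools (35 in the reported fit) and 5 interaction calls (8 in the reported fit), which were 5 with finer clustering and 4 with pools of at least 10 cells. Calls between UUO and UIR went from 9 to 5 after free RNA was subtracted. Leaving out 1 library gave 32 to 40 calls in UIR, 40 to 46 in UUO, 28 to 36 in compartments, 7 to 9 interaction calls, 14 to 15 separate Ldha shares, and 5 to 10 calls between the injuries, with 5 without UIR replicate 2.

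Sign changes were as follows. After free RNA subtraction Ldhb stood at 0.30 in macrophages and 0.21 in pooled immune cells in UUO, and the macrophage Ldha share at -0.466 points. The Ldha share of principal cells in UIR stood at -1.29 points at 15% mitochondrial RNA and -0.310 without the clusters led by no marker. Pfkp in loop of Henle stood at -0.36 and -0.29 at a limit of 50%. Pkm in stroma stood at -0.047 and -0.054 with doublets kept. In the tubular pool at plain CPM (chosen after seeing the data), Ldhb stood at 0.014 and 0.046, Aldoa at 0.25 and 0.19, and Slc2a1 at 0.29 in UUO. The cause was not tested for any of these.

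The title numbers were not taken to pair libraries: same-numbered deviations correlated above 0.1 for all 3 pairs in loop of Henle and endothelium and not in 3 other classes (-0.146 to 0.771 over all). In none of the 5 classes did every library correlate best with its own number. The UIR and UUO libraries without a title number did correlate best with each other in all 5 classes (0.455 to 0.771). Each was negatively correlated with every numbered library of the other injury. Deviations from a group mean cancel out over the libraries of the group, so these negative values follow in part from the positive ones. The reported fit had no term for a likeness between libraries of different groups. A fit with the replicate number as a block gave 40 calls in UIR, 47 in UUO and 12 between the injuries, with Pgk1 in loop of Henle called between the injuries (0.49) and Hk1 in macrophages called in neither injury (-0.87 and -0.82). It also called Ldhb in frTEC in both injuries (1.86 and 1.74), and there Aldoa, Pgk1 and Pgam1 in UIR and Pkm in UUO. DESeq2 and this replicate block were not run for the interaction, whose fit has the library as a block. Depth limits Hk2 in control cells, where 0 UMIs in loop of Henle allow 1.51 CPM.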

Other observations

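Neutrophils and monocytes, present almost only after injury, had the highest class means of Hk2 in UUO, at 131 and 78.6 CPM against 71.2 in macrophages and 70.7 in loop of Henle, with overlapping libraries. The 3 UUO libraries stood at 64.8, 187 and 141 CPM in neutrophils and at 72.0, 74.2 and 89.7 in monocytes, against 64.8 to 79.5 in macrophages. Control libraries held 0 neutrophils and 10 monocytes, so no comparison with control was possible.

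Across the 11 class means of control kidneys, the genes whose order was most like that of Ldha among 9517 genes were Mtmr12 (Pearson's r = 0.93), Tmem39b (0.92) and Nudt1 (0.85), and those most like Ldhb were Rab17 (0.98), Atp6v0a4 (0.98) and Tmprss2 (0.97). These are correlations over 11 classes that share the same libraries and free RNA, and are a description only.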
